A study of Mus musculus with 4 samples.

Results

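The genes described here encode the NKG2, CD94 and NKR-P1 receptors of natural killer (NK) cells, lectin-like surface proteins whose genes lie together on mouse chromosome 6. The 10 genes (Klrc1, Klrc2, Klrc3, Klrd1, Klrk1, Klrb1a, Klrb1b, Klrb1c, Klrb1f and Klre1) were taken by name from the 35275 genes of the count table, and all 10 passed the filter on low counts. RNA was sequenced from splenic NK cells that had been enriched with a kit and sorted for NK1.1 and the lack of CD3. Mice carried the label Irf4-/-, a deletion of the transcription factor gene Irf4, or were wild type (WT) C57BL/6. There were 4 groups of 1 library each: Irf4-/- mice 20 days after an intravenous injection of B16-F10 cells (a mouse melanoma line), WT mice 20 days after the same injection, uninjected Irf4-/- mice, and uninjected WT mice. The labels give neither the age of the mice nor how many animals were behind a library, nor which part of Irf4 was deleted or whether it was deleted in NK cells alone.

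NK cells weigh signals from activating and inhibitory receptors, and these families supply both kinds. CD94 pairs with NKG2 chains to read the non-classical MHC molecule Qa-1, with NKG2A inhibiting the cell and NKG2C activating it, whereas NKG2D forms its own dimers and binds stress-induced MHC-like ligands. Some NKR-P1 receptors bind Clr proteins, C-type lectins encoded by neighbouring Clec2 genes, and the family again includes inhibitory and activating forms.

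Total counts were 18639455 under the Irf4-/- label and 18640811 in WT after injection, and 15878159 under the Irf4-/- label and 21104881 in WT without injection. The WT injected library stood farthest from the others, with root mean square log2 distances of 0.359, 0.399 and 0.360, against 0.234 to 0.325 among the other 3, so that results resting on it are also given without it. Irf4 itself had 236 counts under the Irf4-/- label and 57 in WT after injection, and 188 under the Irf4-/- label and 93 in WT without injection. It was higher under the Irf4-/- labels (log2 change 1.72, SE 0.241, edgeR quasi-likelihood adjusted p 0.00490), which goes against a plain reading of the label, and every genotype direction below depends on the labels. NK identity genes were abundant: the 10 genes of the NK marker list summed to 14674, 12643, 14291 and 12973 CPM in the same order of libraries. Of these 10, 0 passed either additive term described below (edgeR). At an unadjusted p under 0.05 (edgeR) there were 3 for genotype (10.4% of all genes) and 2 for injection (14.2% of all genes). The NK marker list includes Klrb1c, itself a receptor gene described here. Klrb1c encodes the sorting antigen NK1.1, so its level is no separate sign of NK identity. The 4 neutrophil genes summed to 0.429, 0.809, 0.943 and 0.520 CPM, with Ly6g at 0 in every library and 1 to 8 counts for each of the others. CPM here are counts scaled to library size by trimmed mean of M values (TMM). Intervals given with shares and ratios are 95% intervals (exact Clopper-Pearson for shares and for ratios of 1 pair) that cover counting error only, since PCR copies were not told apart by molecular identifiers and reads are not independent. In bulk RNA, fewer cells carrying a receptor and less RNA per cell cannot be told apart.

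Together the receptor genes took 0.634% of all counts under the Irf4-/- label and 0.723% in WT after injection, and 0.627% under the Irf4-/- label and 0.628% in WT without injection. Their summed level was 6342, 7271, 6261 and 6263 CPM in those libraries. The WT injected library held the most receptor RNA, and the other 3 lay close together. The WT injected library was the highest of the 4 for 8 of the 10 genes, whereas it was the highest for 37.6% of the 2463 genes that averaged 100 CPM or more. The exceptions were Klrc1, highest in the library labelled Irf4-/- injected, and Klre1, which was lowest in WT injected. The highest level exceeded the lowest by a median factor of 1.26 over the receptor genes and 1.17 over all genes of at least 100 CPM, and without WT injected by 1.13 and 1.10.

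**Figure D1:**
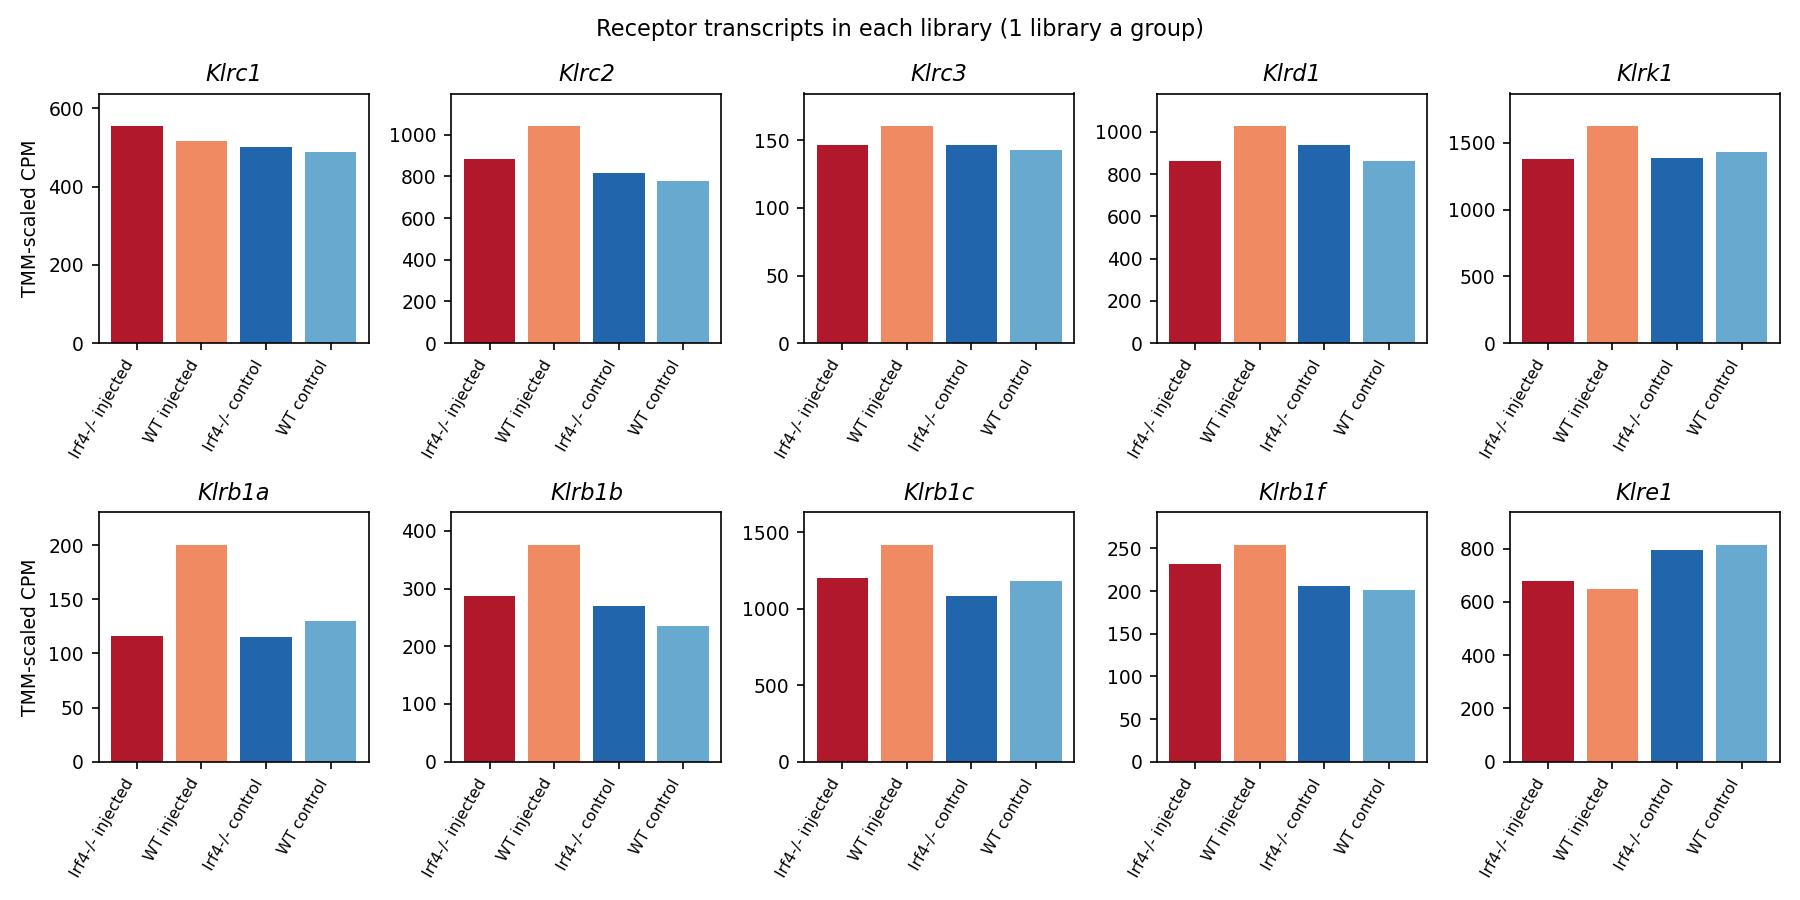
TMM-scaled CPM of each receptor gene in each library (bars from 0, 1 library a group, so no error bars). WT injected has the tallest bar for 8 of 10 genes; Klrb1a reaches 200 CPM there, against 115 to 130 CPM in the other libraries.

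Klrc1 encodes NKG2A, the inhibitory partner of CD94 (ENSMUSG00000030167, chr6:129666015-129678973, minus strand, GRCm38). It had 555 CPM under the Irf4-/- label and 517 in WT after injection, and 502 under the Irf4-/- label and 488 in WT without injection. This was the narrowest but one of the spreads, with the highest library 1.14 times the lowest. Both injected libraries stood above both control libraries, and the log2 ratio of injected to control was 0.14 (0.10 to 0.19) under the Irf4-/- label and 0.08 (0.04 to 0.12) in WT.

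Klrc2 encodes NKG2C, the activating CD94 partner (ENSMUSG00000052736, chr6:129647496-129660689, minus strand). It had 886 CPM under the Irf4-/- label and 1041 in WT after injection, and 818 under the Irf4-/- label and 777 in WT without injection. In the injected pair the Irf4-/- library was lower, at a log2 ratio of -0.23 (-0.26 to -0.20), and in the control pair it was higher, at 0.08 (0.04 to 0.11). The injection ratio was 0.11 (0.08 to 0.15) under the Irf4-/- label and 0.42 (0.39 to 0.45) in WT. Klrc3 encodes NKG2E, a further NKG2 chain that can pair with CD94 (ENSMUSG00000033027, chr6:129639064-129643337, minus strand). It was the least abundant of the 3 Klrc genes in CPM, with 147 under the Irf4-/- label and 161 in WT after injection, and 147 under the Irf4-/- label and 143 in WT without injection.

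The windows around the transcription starts of Klrc2 and Klrc3 are shown because these neighbours, the most and the least abundant Klrc gene in CPM, were nearly the same there. RefSeq sequence of GRCm38.p6 from 250 bases before to 50 bases after the start was 98.3% identical over 301 aligned columns, with 3 differing bases and 2 gap columns. Of the 2 windows listed for Klrc2 the one more like Klrc3 is given. The windows are chr6:129660507-129660806 for Klrc2 and chr6:129643239-129643538 for Klrc3, both on the minus strand, written 5′ to 3′ with capitals for the bases that differ or face a gap.
Klrc2: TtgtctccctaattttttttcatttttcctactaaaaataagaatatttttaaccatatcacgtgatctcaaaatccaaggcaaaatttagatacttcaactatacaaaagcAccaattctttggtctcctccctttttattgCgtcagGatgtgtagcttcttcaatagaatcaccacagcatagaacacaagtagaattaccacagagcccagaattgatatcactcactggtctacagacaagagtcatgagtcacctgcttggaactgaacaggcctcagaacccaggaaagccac
Klrc3: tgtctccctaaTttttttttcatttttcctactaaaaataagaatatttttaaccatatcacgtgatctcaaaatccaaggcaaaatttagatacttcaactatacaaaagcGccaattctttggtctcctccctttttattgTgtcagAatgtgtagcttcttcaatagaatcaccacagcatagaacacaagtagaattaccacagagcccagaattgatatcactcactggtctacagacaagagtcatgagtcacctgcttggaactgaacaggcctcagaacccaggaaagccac
Both windows hold the letters TGAGTCA at the start of transcription, a form of TGANTCA, the AP-1 motif. That motif, which matches both strands at once, was in windows of 3 of the 9 receptor genes with a RefSeq window (Klrc2, Klrc3 and Klrk1). Counted by window, it was in 4 of the 12 receptor windows and in 7.81% of all 32851 windows. Klrc2 and Klrc3 hold the same site in nearly the same sequence, so that their matches are not separate. The coding sequences of Klrc2 and Klrc3 were 88.5% identical, and those of Klrc1 and Klrc2 81.0%.

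The balance of NKG2 chains differed most in WT injected. Klrc1 made up 35.0% (34.4 to 35.5%) of the counts of the 3 Klrc genes under the Irf4-/- label and 30.1% (29.6 to 30.6%) in WT after injection, and 34.2% (33.6 to 34.8%) under the Irf4-/- label and 34.7% (34.2 to 35.2%) in WT without injection. The inhibitory chain thus took a smaller share in WT injected than in the other 3 libraries, which lay within 1 percentage point of each other. Klrc2 took 55.8% (55.2 to 56.4%), 60.6% (60.03 to 61.11%), 55.8% (55.1 to 56.4%) and 55.2% (54.6 to 55.7%) in the same order of libraries. Klrc3 took 9.24% to 10.1%. These shares have no replicate check and are of counts, not adjusted for length. Divided by gene length and library size (FPKM) and averaged over the libraries, Klrc1 stood at 260, Klrc2 at 277 and Klrc3 at 209. Of the stretches of 75 bases in the transcripts of Klrc1, Klrc2 and Klrc3, 25.01%, 11.3% and 23.5% occurred in another Klrc gene. The split of reads among them is thus uncertain where the authors' counting could not place a read. All transcripts were used, also those with a retained intron. Klrc2 had 6103 stretches with 692 shared, Klrc1 2055 with 514 and Klrc3 810 with 190. The lower percentage of Klrc2 therefore does not mean that its reads were easier to place.

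**Figure D2:**
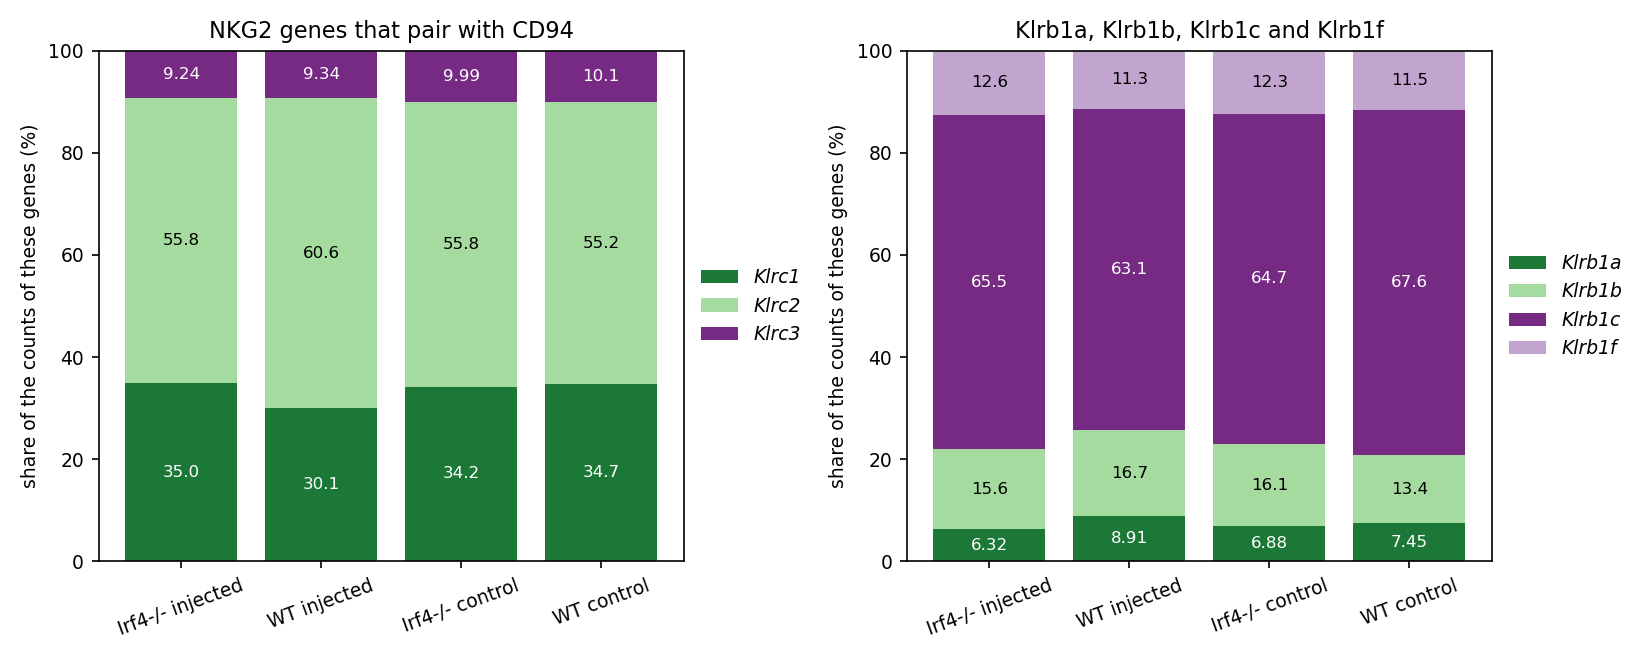
Share (%) of the summed counts of the 3 Klrc genes (left) and Klrb1a, Klrb1b, Klrb1c and Klrb1f (right) that each gene takes in each library; numbers in the bars are the shares. In WT injected Klrc1 takes 30.1%, against 34.2% to 35.0% in the other libraries, and Klrb1a takes 8.91%, against 6.32% to 7.45%.

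Klrd1 encodes CD94 (ENSMUSG00000030165, chr6:129591782-129598775, plus strand). It had 860 CPM under the Irf4-/- label and 1027 in WT after injection, and 938 under the Irf4-/- label and 861 in WT without injection. The ratio of the Irf4-/- library to WT was -0.26 (-0.29 to -0.23) in the injected pair, against 0.12 (0.09 to 0.16) in the control pair. The injection ratio was -0.13 (-0.16 to -0.09) under the Irf4-/- label and 0.25 (0.23 to 0.28) in WT, so that the direction differed between genotypes. Per length, in FPKM (counts divided by gene length and library size), the level of Klrd1 over the summed level of the 3 Klrc genes was 1.22 under the Irf4-/- label and 1.37 in WT after injection, and 1.43 under the Irf4-/- label and 1.36 in WT without injection. Divided by the longest coding part instead, the mean level was 1551 for Klrd1, 704 for Klrc1, 1233 for Klrc2 and 225 for Klrc3. Whether Klrd1 exceeded the 3 together thus depends on the length used.

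Klrk1 encodes NKG2D (ENSMUSG00000030149, chr6:129610323-129623864, minus strand), which signals through the adaptor DAP10, the product of Hcst. It had 1383 CPM under the Irf4-/- label and 1626 in WT after injection, and 1385 under the Irf4-/- label and 1432 in WT without injection. The Irf4-/- libraries were almost equal to each other, and the injection ratio was -0.0029 (-0.03 to 0.02) under the Irf4-/- label and 0.18 (0.16 to 0.21) in WT. The FPKM level of Klrk1 over that of Hcst was 1.56 under the Irf4-/- label and 1.68 in WT after injection, and 1.68 under the Irf4-/- label and 1.63 in WT without injection. The size of this ratio depends on the length used. The mean level of Klrk1 was 456 by the length behind the FPKM and 2092 by its longest coding part. No level by coding part was computed for Hcst.

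Klrb1a encodes NKR-P1A, an activating NKR-P1 form (ENSMUSG00000030361, chr6:128609227-128623533, minus strand). It had 116 CPM under the Irf4-/- label and 200 in WT after injection, and 115 under the Irf4-/- label and 130 in WT without injection. It varied most of the 10 genes: the highest library was 1.74 times the lowest, and 1.13 times without WT injected. The ratio of the Irf4-/- library to WT was -0.79 (-0.87 to -0.71) in the injected pair, against -0.17 (-0.26 to -0.09) in the control pair. The injection ratio was 0.01 (-0.08 to 0.10) under the Irf4-/- label and 0.62 (0.55 to 0.69) in WT.

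Klrb1b encodes NKR-P1B, an inhibitory NKR-P1 form, whose ligand is Clr-b, the product of Clec2d (ENSMUSG00000079298, chr6:128813706-128826331, minus strand). It had 286 CPM under the Irf4-/- label and 376 in WT after injection, and 269 under the Irf4-/- label and 235 in WT without injection. The Irf4-/- library was lower in the injected pair, at a log2 ratio of -0.39 (-0.45 to -0.34), and higher in the control pair, at 0.20 (0.14 to 0.26). The injection ratio was 0.09 (0.03 to 0.15) under the Irf4-/- label and 0.68 (0.63 to 0.73) in WT, the largest injection ratio of the 10 genes.

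The start windows of Klrb1a and Klrb1b are shown because these genes had the widest spread over the libraries. RefSeq lists chr6:128622885-128623184 for Klrb1a and, as 1 of 2 windows, chr6:128826266-128826565 for Klrb1b, both on the minus strand of GRCm38.p6. Capitals mark the longest run of letters common to windows of Klrb1a, Klrb1b, Klrb1c and Klrb1f.
Klrb1a: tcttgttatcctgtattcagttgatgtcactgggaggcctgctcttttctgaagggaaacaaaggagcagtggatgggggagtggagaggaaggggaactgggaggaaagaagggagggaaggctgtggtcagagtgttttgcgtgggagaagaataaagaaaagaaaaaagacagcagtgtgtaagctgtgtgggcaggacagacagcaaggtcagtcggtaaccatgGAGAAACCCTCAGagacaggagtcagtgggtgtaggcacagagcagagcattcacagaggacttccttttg
Klrb1b: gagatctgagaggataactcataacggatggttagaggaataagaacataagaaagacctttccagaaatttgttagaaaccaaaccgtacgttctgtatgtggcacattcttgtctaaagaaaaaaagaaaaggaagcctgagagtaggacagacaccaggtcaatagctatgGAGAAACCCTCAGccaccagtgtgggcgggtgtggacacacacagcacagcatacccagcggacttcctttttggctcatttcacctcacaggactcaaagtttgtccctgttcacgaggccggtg
The run of 13 bases was found in 5 of the 32851 windows, all of them from these 4 genes, and it was looked for after the windows had been seen. Counted from the transcription start, it began at base -21 in Klrb1a, -76 in Klrb1b, 19 in Klrb1c and -86 in Klrb1f. The coding sequences of Klrb1a and Klrb1b were 81.3% identical. The motif of interferon regulatory factors, GAAA followed by NN and then GAAA, was in windows of 0 of the 9 genes on either strand and in 3.44% of all windows. AGGTGTGA, a T-box motif, was in 0 of the 9 and in 1.28% of all windows. TGTGGTT, a RUNX motif, was in 2 genes (Klre1 and Klrk1). By window, it was in 2 of the 12 receptor windows and in 5.27% of all windows. A motif match or its absence describes these letters in these windows only.

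Klrb1c encodes NKR-P1C, the NK1.1 antigen by which the cells were sorted (ENSMUSG00000030325, chr6:128778485-128789215, minus strand), so that its level among sorted cells is bounded by that gate. It had 1201 CPM under the Irf4-/- label and 1418 in WT after injection, and 1085 under the Irf4-/- label and 1181 in WT without injection. The genotype ratio was -0.24 (-0.27 to -0.21) in the injected pair, against -0.12 (-0.15 to -0.10) in the control pair. Klrb1f encodes NKR-P1F, which binds Clr-g, the product of Clec2i (ENSMUSG00000030154, chr6:129045901-129057464, plus strand). It had 231 CPM under the Irf4-/- label and 254 in WT after injection, and 206 under the Irf4-/- label and 201 in WT without injection. For both genes each injected library was above its own control.

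Klrb1c supplied most of the summed counts of Klrb1a, Klrb1b, Klrb1c and Klrb1f in every library, at 65.5%, 63.1%, 64.7% and 67.6% in the libraries labelled Irf4-/- injected, WT injected, Irf4-/- control and WT control. The share of Klrb1a was 6.32% (6.07 to 6.59%), 8.91% (8.64 to 9.19%), 6.88% (6.58 to 7.19%) and 7.45% (7.18 to 7.72%) in that order, highest in WT injected. The share of the inhibitory Klrb1b was 15.6% (15.2 to 15.99%), 16.7% (16.4 to 17.1%), 16.1% (15.6 to 16.5%) and 13.4% (13.1 to 13.8%), lowest in WT control. Exons of Klrb1b and Klrb1c overlap those of the predicted gene Gm44511, which the count table did not list, and 24.5% and 13.2% of their stretches of 75 bases occurred in another gene, mainly that one. Stretches of 150 bases in both were shared with that gene only. As it had no counts of its own, these percentages do not measure how far the counts are uncertain, which was not tested. For Klrb1a the share at 75 bases was 3.35%. The neighbouring gene Klrb1, which is not among the 10 receptor genes and not in these shares, had 216, 374, 224 and 326 counts.

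Klre1 encodes a receptor that pairs with KLRI1 or KLRI2 (ENSMUSG00000050241, chr6:129577905-129585827, plus strand). It had 678 CPM under the Irf4-/- label and 650 in WT after injection, and 794 under the Irf4-/- label and 815 in WT without injection. Both injected libraries were below both control libraries, unlike for any other receptor gene. The injection ratio was -0.23 (-0.26 to -0.19) under the Irf4-/- label and -0.33 (-0.36 to -0.29) in WT. No stretch of 75 bases in Klre1, Klrd1, Klrk1 or Klrb1f occurred in another gene.

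No receptor gene passed the test of an additive genotype or injection effect. In edgeR's quasi-likelihood test with both terms and Benjamini-Hochberg adjustment over 11998 genes, 0 of 10 passed for genotype, where 1.48% of all genes passed, and 0 of 10 for injection, where 0.725% passed. At an unadjusted p under 0.05 the count was 1 for genotype (Klrb1a; 10.4% of all genes) and 4 for injection (Klrb1a, Klrb1b, Klrb1f and Klre1; 14.2% of all genes). DESeq2 and limma-voom called 0 receptor genes for either term. The model leaves 1 residual degree of freedom, so a p-value here reflects departure from additivity among these libraries, possibly of technical origin, and not the spread between mice.

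The largest additive genotype value was that of Klrb1a, at -0.48 on the log2 scale (SE 0.135, edgeR adjusted p 0.160). Those of the other 9 genes lay between -0.18 for Klrb1c and 0.07 for Klrc1, and the median over the 10 genes was -0.07. Without WT injected, the value of Klrb1a was -0.17 and that of Klrb1b, at 0.20, was larger in size, and 6 of 10 genes were higher under the Irf4-/- label, against 2 of 10 in the model. The largest additive injection value was that of Klrb1b, at 0.38 (SE 0.138, edgeR adjusted p 0.241), followed by Klrb1a at 0.32, Klre1 at -0.28, Klrc2 at 0.27 and Klrb1f at 0.25. Without WT injected, Klrb1b was at 0.09, Klrb1a at 0.0095, Klrc2 at 0.11 and Klrb1f at 0.16, and the largest in size was Klre1 at -0.23. Whether Klrb1a and Klrb1b pass depends on how the counts were scaled. With TMM factors computed on all genes before the filter, Klrb1a passed for genotype (edgeR adjusted p 0.00142) and Klrb1b for injection (edgeR adjusted p 0.0365). The order used here, filter first, was settled after both outcomes had been seen. Of 21 fits compared in reaching it, the 14 with factors from the filtered genes called neither gene and the 7 with factors from all genes called both. The 14 hold the same 7 settings under either definition of library size and gave the same adjusted p-values. They are not separate fits, and 14 against 7 lends no weight to the order used. The calls for these genes therefore rest on the order of filter and scaling.

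Set pair by pair, no receptor gene reached a 2-fold ratio, whereas 1.78% of all genes did for genotype in the injected pair, 0.807% for genotype in the control pair, 0.350% for injection under the Irf4-/- label and 1.90% for injection in WT. A pair compares its libraries and has no replicate check. For genotype in the injected pair the counting interval lay above 0 for 2 genes (27.2% of all genes) and below 0 for 8 (27.6%). In the control pair it lay above 0 for 3 (18.0%) and below 0 for 4 (18.7%). The median log2 ratio of the receptor genes was -0.23 in the injected pair and 0.04 in the control pair.

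For injection under the Irf4-/- label the interval lay above 0 for 5 genes (20.4% of all genes) and below 0 for 2 (20.8%), and in WT above 0 for 9 (30.2%) and below 0 for 1 (30.8%). The median log2 ratio was 0.05 under the Irf4-/- label and 0.26 in WT. The receptor genes are abundant and their intervals narrow. Among genes of at least 100 CPM the interval lay above 0 for 39.2% for injection in WT and below 0 for 39.3% for genotype in the injected pair. Both of these pairs contain the WT injected library, so that they are not separate observations.

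**Figure D3:**
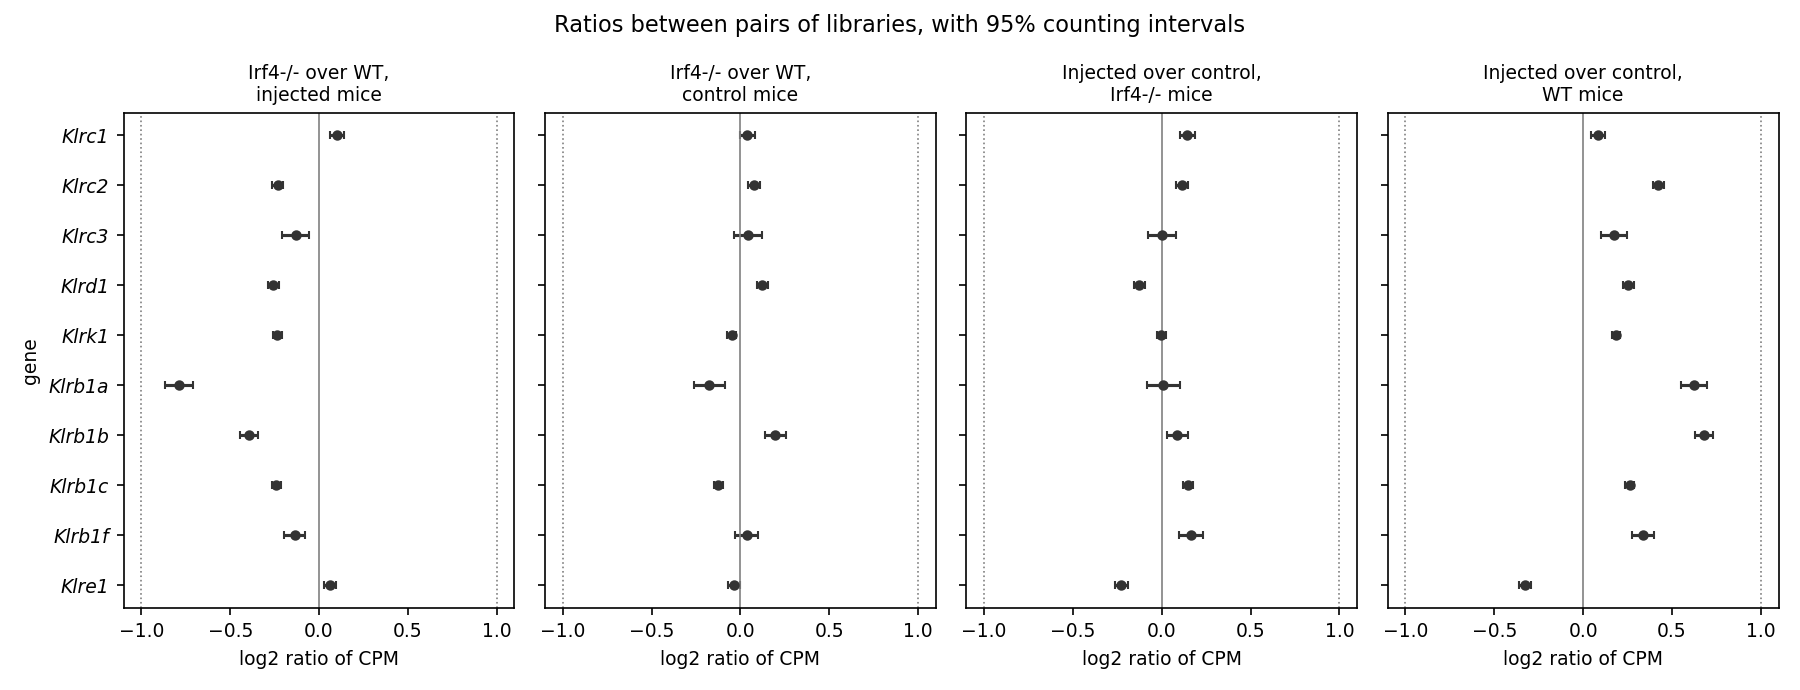
Log2 ratios of CPM between 4 pairs of libraries for each receptor gene (points), with 95% counting intervals (bars); dotted lines mark 2-fold. The points of the injected genotype pair lie mostly left of 0 and those of the WT injection pair mostly right of 0, down to -0.79 for Klrb1a and up to 0.68 for Klrb1b.

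The response to injection, taken as the log2 ratio under the Irf4-/- label minus that in WT, was lower for 8 of the 10 receptor genes and higher for Klrc1 and Klre1. It was -0.61 (-0.73 to -0.50) for Klrb1a, -0.59 (-0.67 to -0.51) for Klrb1b, -0.38 (-0.42 to -0.34) for Klrd1 and -0.31 (-0.35 to -0.26) for Klrc2. The others lay between -0.19 for Klrk1 and 0.10 for Klre1. The counting interval left 0 on the lower side for those 8 genes, as it did for 22.5% of all genes, and on the upper side for 2, as for 23.3%. Intervals of these abundant genes are narrow, and the share among genes of at least 100 CPM was not counted here. The same difference is the genotype ratio in the injected pair minus that in the control pair. It includes the WT injected library and is not a separate observation from those pairs. No degree of freedom is left for a test of this difference.

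The receptor genes were ordered by level per length in the deposited FPKM, with mean and SD over the 4 libraries of different groups. Klrd1 was first at 1003 ± 83.4, above the range of every other gene. Klre1 followed at 564 ± 64.9, Klrb1c at 465 ± 51.9 and Klrk1 at 456 ± 34.5, of which neighbours overlapped in range. Klrc2 at 277 ± 35.5 and Klrc1 at 260 ± 14.2 overlapped, and Klrc3 at 209 ± 10.3 lay apart from its neighbours. Klrb1b at 131 ± 26.5, Klrb1f at 131 ± 13.9 and Klrb1a at 110 ± 31.4 overlapped in turn. The order depends on the length used: the length behind the FPKM of Klrc2, 3179 bp, is that of a transcript with a retained intron, whereas its coding part spans 714 bp. Divided by the longest coding part, the level of Klrk1 came first at 2092, ahead of Klrd1 at 1551, Klrb1c at 1502 and Klrc2 at 1233 per kilobase, scaled to library size, and Klrb1a stayed last at 201.

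**Figure D4:**
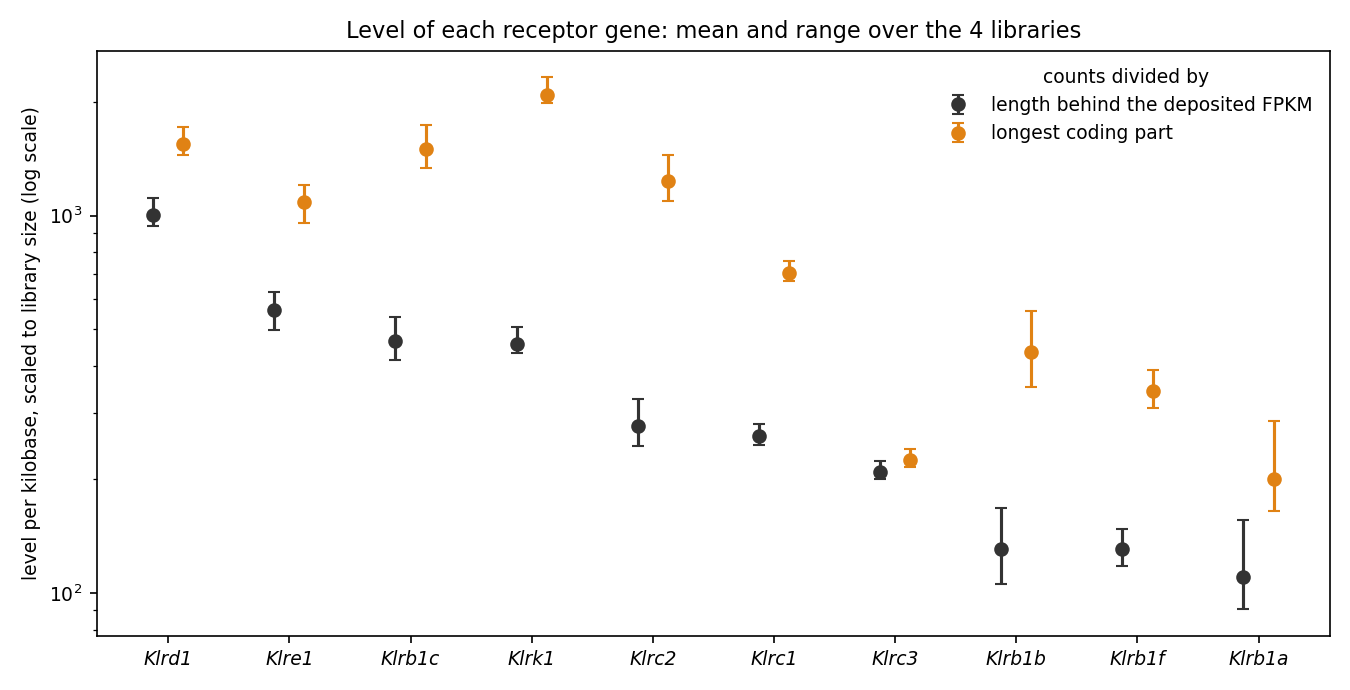
Level of each receptor gene per kilobase, scaled to library size, on a log axis, as the mean (point) and range (bar) over the 4 libraries, with the length behind the deposited FPKM or the longest coding part. By the first length Klrd1 leads at 1003 and by the second Klrk1 at 2092; Klrb1a is last by both.

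The adaptors and signalling molecules that these receptors use did not pass in either direction. It was 0 of 16 tested genes for genotype and 0 of 16 for injection (edgeR quasi-likelihood test, Benjamini-Hochberg adjusted). At an unadjusted p under 0.05 (edgeR) there was 1 for genotype (10.4% of all genes) and 1 for injection (14.2% of all genes). The median log2 value of the 16 genes was 0.02 for genotype and -0.06 for injection. Tyrobp, which encodes the adaptor DAP12, had 763, 647, 791 and 794 CPM in the libraries labelled Irf4-/- injected, WT injected, Irf4-/- control and WT control. Fcer1g, which encodes the Fc receptor gamma chain used by NKR-P1C, had 501, 464, 486 and 525 CPM, and the kinase gene Lck 800, 599, 794 and 825 CPM. Hcst had 121, 133, 113 and 120 CPM. Of the 16 genes, 8 were lowest in WT injected, among them Tyrobp, Fcer1g and Lck, and 5 were highest there, among them Hcst and the kinase subunit gene Pik3r1. Of all genes that averaged 100 CPM or more, 35.2% were lowest and 37.6% highest in that library.

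Of 15 ligand genes listed, 11 were in the table and 5 passed the filter, and 0 of 5 passed either term (edgeR). At an unadjusted p under 0.05 (edgeR) there were 1 for genotype (10.4% of all genes) and 2 for injection (14.2% of all genes). H2-T23, which encodes the Qa-1 molecule read by CD94 and NKG2, had 516, 376, 516 and 409 CPM in the libraries labelled Irf4-/- injected, WT injected, Irf4-/- control and WT control, with a genotype log2 value of 0.40 (edgeR adjusted p 0.160). Both Irf4-/- libraries were above both WT libraries. Clec2d had 170, 182, 191 and 165 CPM, and Clec2i 107, 137, 103 and 88.7 CPM.

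Over the 4 libraries, the profiles closest to that of Klrb1a among 9324 protein-coding genes were those of Dennd6b, Cbx7 and Ttyh3, at Euclidean distances of 0.058, 0.068 and 0.070 between centred log2 CPM. Closest to Klrb1b were Manbal (0.042), Slc37a2 (0.043) and Clec2i (0.047), and closest to Klrc2 were Zfp512b (0.032), Mlxip (0.033) and Coasy (0.034). These distances describe 4 libraries only.

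Markers of other cells differed between the libraries. The 10 monocyte and macrophage genes summed to 69.3, 83.9, 58.7 and 37.5 CPM in the libraries labelled Irf4-/- injected, WT injected, Irf4-/- control and WT control, highest in WT injected like most receptor genes. In this list Vcam1 rose by 1.997 and Lyz2 fell by 1.26 on the log2 scale with injection (edgeR, 2 of 10 tested). At an unadjusted p under 0.05 (edgeR) there were 1 of 10 for genotype (10.4% of all genes) and 8 of 10 for injection (14.2% of all genes). The 6 B cell genes summed to 46.9, 26.9, 64.5 and 61.5 CPM, lowest in WT injected, and the 10 T cell genes to 204, 222, 184 and 217 CPM. The largest of the T cell list were Trbc2, at 82.2, 84.1, 66.0 and 85.0 CPM, and Lef1, at 73.0, 90.2, 69.7 and 75.9 CPM. Every other gene of that list stayed at or below 18.9 CPM. The 5 genes of the type 1 innate lymphoid list, cells that can also carry NK1.1, summed to 305, 259, 171 and 122 CPM. Of these Cxcr6 rose by 2.07 and Tnfsf10 by 0.85 with the Irf4-/- label, and Il7r rose by 1.44 with injection (edgeR). In this list 4 of 5 genes for genotype and 3 of 5 for injection were at an unadjusted p under 0.05 (edgeR). The 4 erythroid genes summed to 94.6, 15.8, 38.6 and 31.9 CPM. No B cell, T cell or erythroid gene passed either term (edgeR). At an unadjusted p under 0.05 (edgeR) there were 1 of 6, 1 of 9 and 2 of 3 tested for genotype. For injection there were 5 of 6, 0 of 9 and 0 of 3. The dendritic cell, platelet, NKT and gamma delta T cell, and neutrophil lists summed to at most 37.9 CPM in any library, and no gene of theirs passed either term (edgeR; 1 dendritic cell gene at an unadjusted p under 0.05 for genotype). The part of these cells in the receptor levels was not tested.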

How the data were processed

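RNA libraries were made with a SMARTER mRNA kit from sorted splenic NK cells, per the labels' protocols. The counts the authors deposited are unnormalized whole numbers for each gene. Each of the 72455 deposited FPKM values with a count implies a whole-number gene length, within 0.01 bp, from count and library total. TopHat, edgeR and genome build mm10 are named in the submitters' processing notes, without versions; no source used here gives the counter, annotation or strand setting. Of 35275 identifiers, 34490 matched a GENCODE symbol of GRCm38, and the 785 others held at most 0.0887% of counts. Totals ran between 15878159 and 21104881, so that 3 counts, the limit that a count of 0 allows, are 0.142 to 0.189 CPM.

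The filter kept 11998 genes that reached 1 CPM in 2 or more libraries, and TMM factors were then computed on them. The additive effects of genotype and injection were tested with edgeR 4.0.16 (glmQLFit, glmQLFTest, two-sided) on R 4.3.3, with Benjamini-Hochberg adjustment at 0.05. The fit had 1 residual and 9.62 prior degrees of freedom and a biological coefficient of variation of 9.98%. Only genes passing this test are said to have risen or fallen. The planned design left the order of filtering and scaling open. A first fit with TMM factors from all genes called Klrb1a for genotype and Klrb1b for injection. After that, 24 configurations were compared, of which 21 could be fitted, and filtering first was adopted because it matches an earlier processing of these data; this choice was therefore made with the outcome known. Pairwise log2 ratios of CPM used a prior count of 2 and the size rule a mean of at least 5 CPM, a 2-fold ratio and an interval that excludes 1. The genotype test and the counting interval of a pair were tried on simulated data. The simulated counts held no injection effect, no departure from additivity and no outlying library. The injection term, the difference of responses, the shares and the order of filter and scaling were not tried in this way.

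The receptor genes, gene lists and tests were chosen with earlier results of these data known, and the promoter motifs and the common run after the windows had been seen. All receptor genes and Irf4 are named, with, of the lists, the genes that passed and the 3 of highest FPKM (not given for the cell type marker lists), and, for the 3 receptor genes of widest range, the 3 protein-coding genes of closest profile. Hcst, Pik3r1, Klrb1, Ly6g, Trbc2 and Lef1 were added after their values were seen. Promoter windows are RefSeq's for GRCm38.p6; 9 of 10 receptor genes, with 12 windows, matched, and Klrd1 did not. Alternatives were other scalings, filters and folds, a pseudocount of 0.1 on FPKM, other prior counts, DESeq2 1.42.0, limma-voom in limma 3.58.1 and the pairs that remain without the WT injected library.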

Additional observations from a re-analysis of the deposited data

Results flagged for a closer look

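Some receptor genes stood on opposite sides of 0 in the compared pairs, with a difference that was not tested, since 1 library a group leaves no degree of freedom for it. The genotype log2 ratio in the injected pair minus that in the control pair was -0.31 for Klrc2, -0.38 for Klrd1, -0.59 for Klrb1b and 0.10 for Klre1. Klrc2, Klrd1 and Klrb1b were lower under the Irf4-/- label in the injected pair and higher in the control pair, and Klre1 the other way round. For Klrd1 the injection log2 ratio also differed in sign, -0.13 under the Irf4-/- label and 0.25 in WT, a difference of -0.38. Each of these differences includes the WT injected library, the one that stood farthest from the others. How many of all genes changed sides in this way was not counted. The counting interval of the difference itself lay below 0 for 22.5% of all genes and above 0 for 23.3%. The receptor genes are abundant and their intervals narrow, and for Klre1 the control-pair interval ended at -0.0038.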

How the results depend on the processing

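The counts of receptor genes called by the additive model moved under 2 alternatives. Without a filter on low counts, 1 receptor gene (Klrb1a) was called for genotype and 1 (Klrb1b) for injection, against 0 for each. The same calls, 1 and 1, were made with TMM factors from all genes, an alternative set after seeing the data: both orders of filter and scaling were fitted before the reported one was adopted. Over these alternatives and the 24 configurations compared, the edgeR, DESeq2 or limma adjusted p of Klrb1a for genotype ran between 0.000516 and 0.805 (0.160 as reported), and that of Klrb1b for injection between 0.0181 and 0.536 (0.241 as reported). The lowest were reached with TMM factors from all genes and edgeR's newer method, and the highest with the other term left out. Without a filter they were 0.000851 and 0.0272. The prior degrees of freedom were 9.62 as reported and 83.8 with TMM factors from all genes. Over all genes, those calls numbered 146 higher and 31 lower for genotype as reported, against 295 and 142 with TMM factors from all genes and 319 and 163 without a filter. With DESeq2 15 were lower, with total count scaling 57, and with the injection term left out 3 were higher and 2 lower. For injection they numbered 40 higher and 47 lower as reported, against 295 and 283 with TMM factors from all genes, 305 and 299 without a filter, 113 and 100 with upper-quartile scaling, 125 and 150 with total count scaling, 75 and 86 with a 5 CPM filter, 114 and 121 at an adjusted p under 0.1, and 0 and 0 with the genotype term left out. The cause was not tested.

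At a fold of 1.5 in place of 2, 1 receptor gene (Klrb1a) was past it for genotype in the injected pair and 2 (Klrb1a and Klrb1b) for injection in WT. The share of all genes past that fold is not given here, so these counts say nothing of the receptor genes as a set. Without the WT injected library the genotype value, then that of the control pair alone, changed sign to 0.075 for Klrc2, 0.040 for Klrc3, 0.12 for Klrd1, 0.20 for Klrb1b, 0.036 for Klrb1f and -0.037 for Klre1, and the injection value to -0.13 for Klrd1 and -0.0029 for Klrk1. Without that library Klrb1a was at -0.17 for genotype (-0.48 as reported) and 0.0095 for injection (0.32 as reported), and Klrb1b at 0.09 for injection (0.38 as reported). Other scalings shifted the median of all genes by at most 0.0157 on the log2 scale and changed the sign of Klrk1 or Klrc3 alone, in the injection pair under the Irf4-/- label. No paired analysis was possible because the labels give no replicate numbers and each group holds 1 library. With 1 library a group, sampling of reads is covered but the spread between mice is not.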

Other observations

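Other lectin-like receptor genes of NK cells, among them the Ly49 family encoded by Klra genes, were listed beside those described above. Of 16 listed, 15 were in the table and 14 were tested. Klrg1, an inhibitory receptor of mature NK cells that binds cadherins, rose with the Irf4-/- label by 1.39 on the log2 scale (SE 0.123, edgeR quasi-likelihood adjusted p 0.000230), the only 1 of the 14 to pass. It had 217 CPM under the Irf4-/- label and 70.3 in WT after injection, and 271 under the Irf4-/- label and 121 in WT without injection. The 13 others passed neither term (edgeR). With Klrg1, 7 of 14 genes were at an unadjusted p under 0.05 (edgeR) for genotype, against 10.4% of all genes. For injection there were 3 of 14, against 14.2% of all genes. Klra8, which encodes the activating receptor Ly49H, had 1247, 1199, 1234 and 971 CPM in that order, Klra4 702, 740, 607 and 582 CPM, and Klra7 398, 438, 454 and 416 CPM. Reads of the near-identical Klra genes may be split among them.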
